A study of Homo sapiens with 9 samples.

Results

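The nuclear and mitochondrial genes for the oxidative phosphorylation complexes were followed by respiratory complex in Daudi cells, a human B-cell line derived from Burkitt lymphoma, in which MYC is driven from an immunoglobulin locus. Members were the genes with an array probe set of exactly 1 symbol starting with NDUFA, NDUFB, NDUFC, NDUFS, NDUFV, UQCR, COX and a digit, ATP5F, ATP5M or ATP5P, or named SDHA, SDHB, SDHC, SDHD or CYC1; hyphenated symbols and the NDUFAF assembly factors were left out. Each gene was read from its probe set with the highest mean over the 9 arrays. The rule gave 91 genes of the 19775 with such a probe set, of which 85 were bright enough to enter the test of 11250 genes. They comprised 33 genes of complex I, 3 of complex II, 7 of complex III, 16 nuclear genes of complex IV, the 3 subunits of complex IV that mitochondrial DNA encodes, 9 assembly genes of complex IV whose symbols also start with COX and a digit, the supercomplex gene COX7A2L, 17 genes of complex V and 2 pseudogenes. The 6 members too dim to be tested were COX6A2, COX6B2, COX7A1, COX7B2, COX8C and the pseudogene COX6A1P1. SDHB, NDUFS5, NDUFS8, NDUFC2, NDUFA4, NDUFA4L2, UQCRFS1 and UQCRH were not analysed here, because each shares its probe sets with another symbol.

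The study asked what follows the loss of SLC7A5, a transporter of large neutral amino acids, and of the transcription factor MYC. Ctrl-sh cells were infected with a control shRNA, Slc7a5-sh cells with an shRNA against Slc7a5, and C-Myc-sh cells with an shRNA against C-Myc, each group with 3 arrays. All 3 groups were grown in RPMI medium with serum and L-glutamine and selected with puromycin for 48 h. The titles call the arrays biological replicates, but whether they came from separate infections is not given in the sources used here, so p-values measure the spread between these arrays only. The labels name 1 shRNA per target and give no second hairpin against either gene.

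In oxidative phosphorylation, complexes I and II pass electrons from NADH and succinate to ubiquinone, complex III passes them on to cytochrome c, and complex IV hands them to oxygen. Complexes I, III and IV pump protons as they do so, and complex V, the ATP synthase, lets the protons flow back to make ATP. The subunits come from both the nuclear and the mitochondrial genome, and proliferating B cells use the chain for energy as well as for regenerating electron acceptors. MYC binds the E-box letters CACGTG, and the factors NRF1 and GABP, an ETS-family protein, are textbook regulators of nuclear respiratory genes.

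Promoter windows were therefore read for the members, from 250 bases before to 50 after the RefSeq start site (GRCh38.p14), and 73 of the 91 members had 1 or more, 90 windows in all. The stretches below are printed 5′ to 3′ on the strand of the gene, in lower case with the matched letters in capitals. The first 5 hold the E-box and belong to members called lower in Slc7a5-sh cells, and they are shown because the counts for E-box windows given later turn on them. They lie at chr17:48892764-48892806 (plus strand, ATP5MC1), chr19:1383693-1383752 (plus strand, NDUFS7), chr19:5903890-5903949 (minus strand, NDUFA11), chr19:1605617-1605676 (minus strand, UQCR11) and chr12:50112156-50112215 (plus strand, COX14). The other 3 hold the NRF1 core, whose letters are the first run of capitals in each, and belong to members called higher in C-Myc-sh cells, at chr11:112086736-112086802 (plus strand, SDHD), chr9:122159760-122159810 (minus strand, NDUFA8) and chr3:119677486-119677549 (minus strand, COX17). In SDHD a second run of capitals marks the ETS core CCGGAAG as read on the opposite strand. Both sets were picked after the values had been seen, and a match describes letters, not a bound site.
ATP5MC1: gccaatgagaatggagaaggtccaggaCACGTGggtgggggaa
NDUFS7: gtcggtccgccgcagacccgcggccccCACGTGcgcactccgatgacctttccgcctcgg
NDUFA11: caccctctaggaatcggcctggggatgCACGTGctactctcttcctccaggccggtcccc
UQCR11: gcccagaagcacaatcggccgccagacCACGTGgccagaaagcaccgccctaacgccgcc
COX14: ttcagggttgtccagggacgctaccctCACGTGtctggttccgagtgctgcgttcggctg
SDHD: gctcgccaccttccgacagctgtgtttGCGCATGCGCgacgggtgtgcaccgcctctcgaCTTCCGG
NDUFA8: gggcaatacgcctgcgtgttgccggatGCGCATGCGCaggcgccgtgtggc
COX17: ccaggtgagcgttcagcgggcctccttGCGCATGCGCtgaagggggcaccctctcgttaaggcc

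Values are log2 signals that were scaled to one target on each array, so a level is relative to the rest of that array. They do not show a change in the RNA content of a cell, and in a mixed population less RNA per cell could not be told apart from fewer expressing cells. Within a group the arrays correlated at 0.972 to 0.977 over all probe sets. The targeted genes were lower in their own knockdown: SLC7A5 stood at 80.0% of its Ctrl-sh signal in Slc7a5-sh cells, and MYC at 46.9% in C-Myc-sh cells. Each was also lower in the other knockdown, with MYC at 78.7% in Slc7a5-sh cells and SLC7A5 at 75.4% in C-Myc-sh cells. Between C-Myc-sh and Slc7a5-sh cells SLC7A5 was not told apart, at -0.08 on the log2 scale (limma adjusted p = 0.351). MYC was lower in C-Myc-sh than in Slc7a5-sh cells, at -0.74 (limma adjusted p = 4.1e-08). Of 8 B-cell markers, 7 were measured and all 7 were above the expression filter, with summed linear signals of 44700 to 47100 in Ctrl-sh, 38800 to 42900 in Slc7a5-sh arrays and 45900 to 49800 in C-Myc-sh arrays. None of 6 myeloid markers and 2 of 8 T and NK cell markers, CD3E and CD4, passed that filter, with T and NK sums of 322 to 381 in Ctrl-sh, 236 to 321 in Slc7a5-sh and 295 to 370 in C-Myc-sh arrays. Of 6 fibroblast and epithelial markers 4 passed it (COL1A1, DCN, KRT8 and KRT18), with sums of 677 to 822, 569 to 667 and 469 to 698 in the same order. The myeloid sums ran from 161 to 240, 162 to 349 and 222 to 285. The B-cell, T and NK, and fibroblast and epithelial sums were lower in every Slc7a5-sh array than in any Ctrl-sh array, and their part in the Slc7a5-sh values below was not tested.

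After knockdown of Slc7a5 more respiratory genes fell than rose, mostly by small steps. Of the 85 members tested, 19 fell and 5 rose, against 11.0% of all tested genes called lower and 14.3% called higher, 25.3% in all. A call is a Benjamini-Hochberg adjusted p under 0.05 in limma over the 11250 genes. As shares of the members, 22.4% were called lower and 5.88% higher. The median change of the members was -0.06 on the log2 scale, beside 0.03 for all tested genes, and their median size of change without regard to sign was 0.11, beside 0.22. The 3 Slc7a5-sh arrays lay wholly apart from the 3 Ctrl-sh arrays for 34 members, 8 above and 26 below, where 39.8% of all tested genes did so. Only COX3 was called with a change of 1 or more on the log2 scale. The count of members that rose depended on single arrays: it was 2 without Ctrl-sh replicate 3, 3 without Ctrl-sh replicate 2 or Slc7a5-sh replicate 3, and 5 to 7 without any other array. With eBayes run without a mean-variance trend, 2 members rose and 8 fell, beside 1260 and 923 of the 11250 tested genes.

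Knockdown of C-Myc gave calls in both directions, at a share of the members close to that of all genes. Here 18 of the 85 rose and 26 fell, while 28.7% of all tested genes were called higher and 26.2% lower, 54.9% in all. Members called higher made up 21.2% and those called lower 30.6%, 51.8% in all. The members' median change was -0.05, beside 0.04 for all tested genes, and their median size of change was 0.18, beside 0.44. Arrays of the groups lay apart for 50 members, 21 above and 29 below, where 62.2% of all tested genes did so. The balance of directions depended on the scaling. After quantile normalization 35 members were called higher and 18 lower, and their median became 0.07. Of the 11256 genes tested in that setting, 3083 were called higher and 3093 lower. The respiratory genes are bright, and bright genes as a whole sat low in the C-Myc-sh arrays as deposited: tested genes with a mean of 13 to 14 had a median change of -0.25, while the 25 members in that range had one of -0.03.

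**Figure D1:**
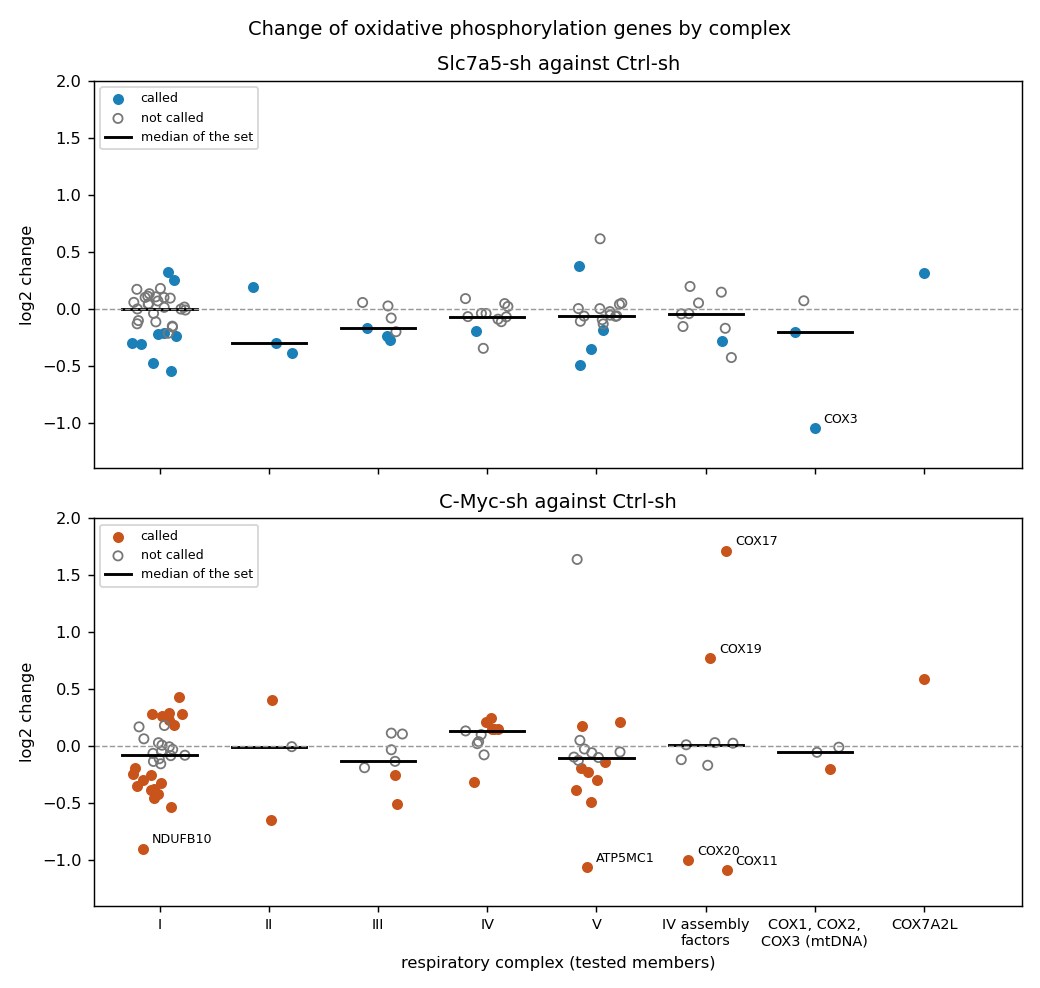
Log2 change of every tested nuclear member of complexes I to V in Slc7a5-sh (top) and C-Myc-sh (bottom) cells against Ctrl-sh cells, 1 point a gene. Genes are grouped along the horizontal axis by complex. To the right stand the complex IV assembly genes, the mitochondrially encoded COX1, COX2 and COX3, and COX7A2L. Filled points were called, open points were not, and a black line marks the median of each set of more than 1 gene. The complex III median is -0.17 at the top and -0.13 at the bottom. The nuclear complex IV median is -0.07 at the top and 0.13 at the bottom.

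By complex, the median Slc7a5-sh change was at or below 0. The counts with all arrays stand beside 14.3% of all tested genes called higher and 11.0% called lower. Complex I had 2 members higher and 7 lower of 33, with a median change of 0.00 and a range of -0.54 to 0.32. In complex II 1 rose and 2 fell of 3, with a median of -0.30. Complex III had 0 higher and 3 lower of 7, with a median of -0.17. Among the 11 tested nuclear genes of complex IV, 0 rose and 1 fell, and the median was -0.07. Complex V had 1 higher and 3 lower of 17, with a median of -0.06. The small counts leaned on single arrays and on the choice of probe set. Complex I had 4 higher without Slc7a5-sh replicate 1, 1 higher without Ctrl-sh replicate 2, Ctrl-sh replicate 3 or Slc7a5-sh replicate 3, 0 higher and 1 lower when the probe sets of a gene were averaged, and 1 higher and 4 lower with eBayes without trend. Complex III had 1 lower without Ctrl-sh replicate 3 or Slc7a5-sh replicate 2, and 2 without Ctrl-sh replicate 1, Ctrl-sh replicate 2 or Slc7a5-sh replicate 1. Complex V had 1 lower without Ctrl-sh replicate 1, Ctrl-sh replicate 3 or Slc7a5-sh replicate 1.

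In C-Myc-sh cells the balance of calls in a complex depended on the setting. With all arrays on the deposited scale, 28.7% of all tested genes were called higher and 26.2% lower. Of the 11 nuclear genes of complex IV 5 rose and 1 fell, with a median change of 0.13 and a range of -0.31 to 0.25. Array by array, the median deviation of these 11 genes from their Ctrl-sh means was 0.04, 0.14 and 0.17 in the C-Myc-sh arrays, and 0.02, -0.01 and -0.04 in the Ctrl-sh arrays. The lowest C-Myc-sh array lay close to the highest control array. Complex I had 7 higher and 12 lower, with a median of -0.08. Complex II had 1 higher and 1 lower, with a median of 0.00. Complex III had 0 higher and 2 lower, with a median of -0.13, and complex V had 2 higher and 7 lower, with a median of -0.10. After quantile normalization complex I had 13 higher and 10 lower, complex III 3 and 1, complex IV 9 and 0, and complex V 6 and 3. In that setting 3083 of 11256 tested genes were higher and 3093 lower. The complex IV count of 5 was 2 without Ctrl-sh replicate 3 or C-Myc-sh replicate 2, and 3 without Ctrl-sh replicate 1, Ctrl-sh replicate 2 or C-Myc-sh replicate 3. It was 1 with eBayes without trend, and 2 with the replicate block or with no filter on dim probe sets, each beside 1 lower. When probe sets were averaged complex I had 8 higher and 6 lower, and without the probe sets ending in _s_at or _x_at, which may match several transcripts, complex I again had 8 and 6, complex II 2 and 0 and complex V 3 and 2.

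The C-Myc-sh and Slc7a5-sh arrays were also set against each other, since both comparisons above share the Ctrl-sh arrays. Here 26 of the 85 members were higher in C-Myc-sh cells and 24 lower, beside 24.4% and 25.1% of all tested genes, 49.5% in all. Arrays of the groups lay apart for 47 members, 24 above and 23 below, where 56.5% of all tested genes did so. After quantile normalization 43 were higher and 12 lower, beside 2594 and 2923 of 11256 tested genes. Nuclear complex IV had 7 higher and 1 lower of 11, with a median of 0.19, and 9 higher and 0 lower after quantile normalization. Complex I had 8 higher and 11 lower, complex III 2 and 2, and complex V 2 and 5. After quantile normalization these became 15 and 7, 4 and 0, and 8 and 2. Without C-Myc-sh replicate 3, 17 members in place of 26 were higher. The complex IV count of 7 was 4 without C-Myc-sh replicate 2 or 3.

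**Figure D2:**
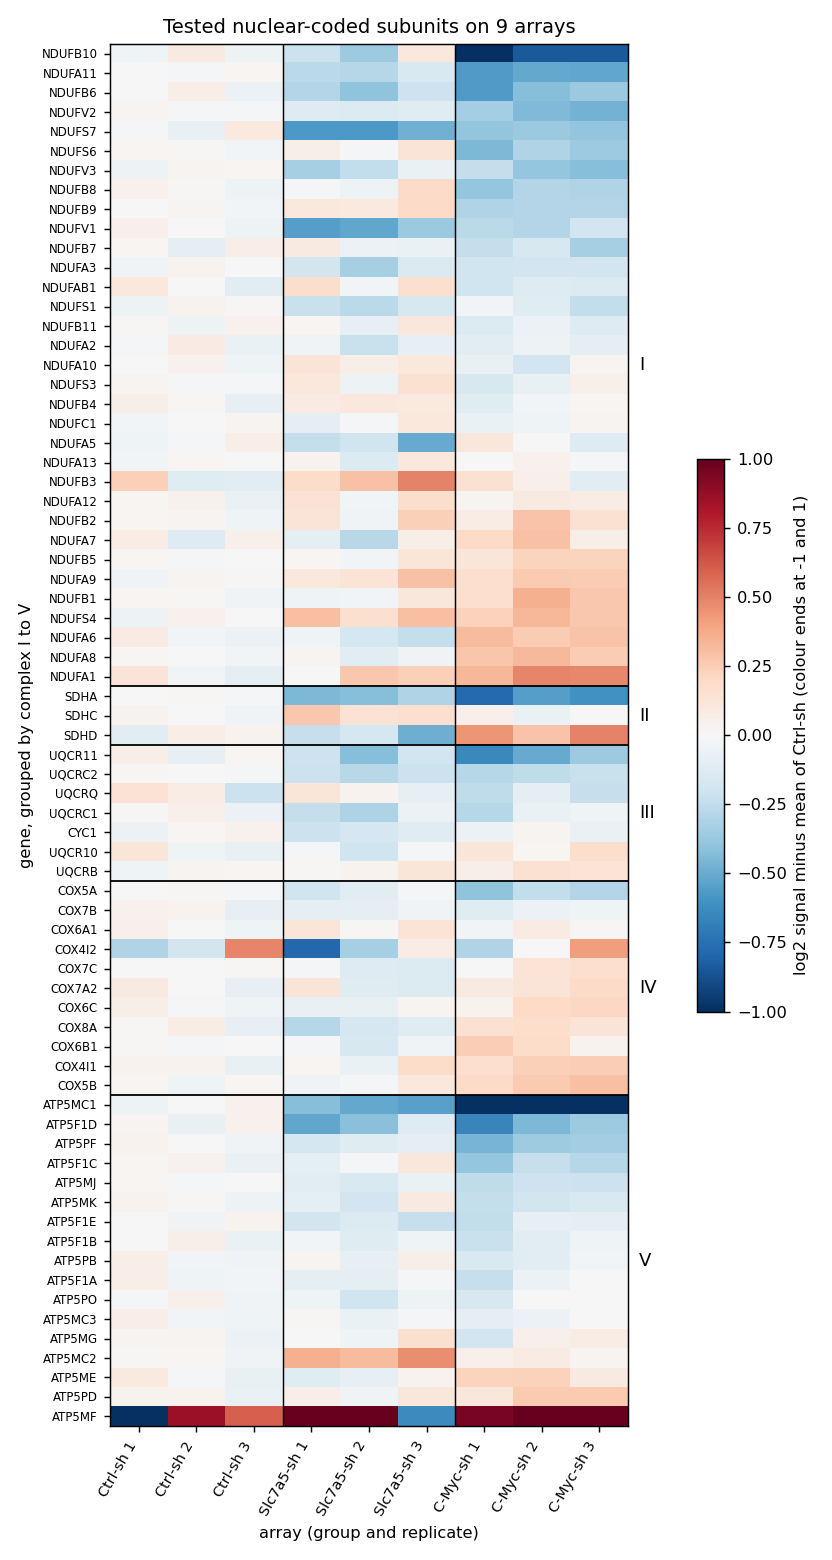
Log2 signal of the 71 tested nuclear subunits of complexes I to V in each of the 9 arrays, as the difference from the gene's Ctrl-sh mean; rows are genes grouped by complex, columns are arrays grouped by shRNA, and the colour scale ends at -1 and 1. Strong colour is limited to single rows such as ATP5MC1, NDUFB10 and SDHA, and most rows stay pale in all arrays. The strongest row is the dim ATP5MF, with -1.457 in Ctrl-sh replicate 1 and 2.495 in C-Myc-sh replicate 3. COX4I2 reaches -0.786 in Slc7a5-sh replicate 1. Both were called in neither knockdown.

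Side by side, the calls against Ctrl-sh gave 12 members lower in both knockdowns: SDHA, ATP5MC1, NDUFS7, NDUFV1, NDUFA11, NDUFA3, NDUFB6, UQCRC2, UQCR11, ATP5F1D, ATP5F1E and the mitochondrially encoded COX1. NDUFS4 and COX7A2L were higher in both. SDHD and COX8A were lower in Slc7a5-sh cells and higher in C-Myc-sh cells. A further 14 members were called higher and 14 lower in C-Myc-sh cells alone of the 2, and 3 higher and 5 lower in Slc7a5-sh cells alone, and 33 were called in neither. Because the control arrays are shared, these groupings are a description of calls and no measure of likeness. Of all tested genes, 11.0% were called lower and 14.3% higher in Slc7a5-sh cells, and 26.2% and 28.7% in C-Myc-sh cells. The share of all tested genes with each pair of calls is not given here, so the groupings cannot be read as particular to the members. Several of the shared calls depended on the setting. After quantile normalization the C-Myc-sh calls of ATP5F1E (0.02), COX1 (-0.07), NDUFA3 (-0.04) and UQCRC2 were lost. With averaged probe sets NDUFS7, NDUFA11, NDUFB6 and ATP5F1E read positive in Slc7a5-sh cells, though none of them was called higher. ATP5F1E changed by -0.18 (adjusted p = 0.0216) in Slc7a5-sh cells and -0.14 (adjusted p = 0.0411) in C-Myc-sh cells. Its calls held in 12 and 8 of 18 alternative settings.

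Complex I takes electrons from NADH through its core subunits, and several of those core genes were lower in the knockdowns. Of the 5 core members measured (NDUFV1, NDUFV2, NDUFS1, NDUFS3 and NDUFS7), 3 fell in each knockdown and 0 rose, with median changes of -0.22 in Slc7a5-sh cells and -0.25 in C-Myc-sh cells. Of all tested genes 11.0% were called lower in Slc7a5-sh cells and 26.2% in C-Myc-sh cells. NDUFS7, which carries the iron-sulphur cluster next to the ubiquinone site, read 11.71, 11.66 and 11.83 in the Ctrl-sh arrays, 11.16, 11.15 and 11.25 in the Slc7a5-sh arrays and 11.34, 11.36 and 11.34 in the C-Myc-sh arrays. Its knockdown arrays all lay below the controls. The change was -0.54 ± 0.06 (adjusted p = 4.6e-05) in Slc7a5-sh cells and -0.38 ± 0.06 (adjusted p = 1.4e-04) in C-Myc-sh cells, where ± is the standard error. NDUFV1, the subunit that binds NADH and the flavin, read 12.22, 12.17 and 12.12 in the Ctrl-sh arrays, 11.62, 11.64 and 11.80 in the Slc7a5-sh arrays and 11.90, 11.87 and 11.98 in the C-Myc-sh arrays. It fell by 0.48 ± 0.06 (adjusted p = 1.0e-04) on the log2 scale in Slc7a5-sh cells and by 0.25 ± 0.06 (adjusted p = 0.00369) in C-Myc-sh cells, and the C-Myc-sh arrays were higher than the Slc7a5-sh arrays by 0.23 ± 0.06 (adjusted p = 0.00809). NDUFV2, the partner of NDUFV1 with an iron-sulphur cluster of its own, read 12.85, 12.81 and 12.80 in the Ctrl-sh arrays, 12.69, 12.68 and 12.69 in the Slc7a5-sh arrays and 12.48, 12.38 and 12.34 in the C-Myc-sh arrays. It was called in C-Myc-sh cells only, at -0.42 ± 0.05 (adjusted p = 7.7e-06), and the direct comparison was -0.29 ± 0.05 (adjusted p = 3.5e-04). NDUFS1, the large subunit that relays electrons from the NADH end, changed by -0.22 ± 0.07 (adjusted p = 0.0271) in Slc7a5-sh cells and was not called in C-Myc-sh cells, at -0.13 ± 0.07 (adjusted p = 0.103). Where probe sets of a gene were averaged in place of the brightest, NDUFS7 read 0.22 in Slc7a5-sh cells, not called, and NDUFV1 0.46 in C-Myc-sh cells. In those comparisons neither gene had a probe set of opposite sign above the expression filter.

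The largest single change of a complex I gene was in the membrane arm. NDUFB10, an accessory subunit of the far end of that arm, read 12.89, 13.02 and 12.88 in the Ctrl-sh arrays, 12.71, 12.56 and 13.03 in the Slc7a5-sh arrays and 11.91, 12.09 and 12.09 in the C-Myc-sh arrays. The 3 C-Myc-sh arrays lay below all the others, and the Slc7a5-sh arrays overlapped the controls. The change was -0.90 ± 0.10 (adjusted p = 1.4e-06) in C-Myc-sh cells and -0.16 ± 0.10 (adjusted p = 0.249), not called, in Slc7a5-sh cells, with -0.74 ± 0.10 (adjusted p = 1.5e-05) between the knockdowns; without Slc7a5-sh replicate 3 the Slc7a5-sh change was -0.29 and called (adjusted p = 0.0129). The other probe set of NDUFB10 also read -0.90 in C-Myc-sh cells. NDUFA11, a membrane-arm subunit near the contact with complex III, read 13.43, 13.41 and 13.44 in the Ctrl-sh arrays, 13.16, 13.14 and 13.27 in the Slc7a5-sh arrays and 12.86, 12.92 and 12.91 in the C-Myc-sh arrays. It stepped down from Ctrl-sh to Slc7a5-sh, at -0.24 ± 0.05 (adjusted p = 0.00352), and further to C-Myc-sh, at -0.53 ± 0.05 (adjusted p = 4.8e-07), with no overlap of arrays at either step. As the mean of its 3 probe sets, 1 of them dim, NDUFA11 read 0.15 in Slc7a5-sh cells and -0.14 in C-Myc-sh cells, neither of them called. NDUFB6, another membrane-arm subunit, changed by -0.30 ± 0.07 (adjusted p = 0.00402) and -0.46 ± 0.07 (adjusted p = 3.3e-05), although a dimmer probe set of the gene read 0.40 and 1.15. As a family the 11 NDUFB genes of the membrane arm had 1 higher and 1 lower in Slc7a5-sh cells and 2 higher and 5 lower in C-Myc-sh cells, where 4 and 4 were called after quantile normalization. On the deposited scale all tested genes had 14.3% higher and 11.0% lower in Slc7a5-sh cells, and 28.7% and 26.2% in C-Myc-sh cells.

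Some accessory subunits of complex I rose. NDUFS4, whose loss in people causes Leigh syndrome, read 11.63, 11.72 and 11.68 in the Ctrl-sh arrays, 11.98, 11.84 and 11.98 in the Slc7a5-sh arrays and 11.91, 12.01 and 11.95 in the C-Myc-sh arrays. Both knockdowns lay above all control arrays, by 0.26 ± 0.06 (adjusted p = 0.00753) and 0.28 ± 0.06 (adjusted p = 0.00143). NDUFB3, a small membrane-arm subunit, was the other complex I member called higher in Slc7a5-sh cells, at 0.32 ± 0.10 (adjusted p = 0.0305), although its arrays overlapped the controls. NDUFA1, an X-linked gene needed to build the membrane arm, read 12.94, 12.78 and 12.72 in the Ctrl-sh arrays, 12.82, 13.08 and 13.05 in the Slc7a5-sh arrays and 13.14, 13.30 and 13.29 in the C-Myc-sh arrays. It rose in C-Myc-sh cells by 0.43 ± 0.08 (adjusted p = 2.4e-04), and its Slc7a5-sh change of 0.17 ± 0.08 (adjusted p = 0.127) was not called, though it was called without Slc7a5-sh replicate 1 (0.25, adjusted p = 0.0286). NDUFA8, an intermembrane-space subunit whose NRF1-core window is printed above, read 11.79, 11.78 and 11.74 in the Ctrl-sh arrays, 11.80, 11.65 and 11.74 in the Slc7a5-sh arrays and 12.05, 12.10 and 12.03 in the C-Myc-sh arrays. Its C-Myc-sh arrays lay above both other groups, with a change of 0.29 ± 0.06 (adjusted p = 7.0e-04).

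NDUFA6 and NDUFA5 separated the knockdowns. NDUFA6, which binds an acyl carrier protein in the matrix arm, read 12.99, 12.88 and 12.84 in the Ctrl-sh arrays, 12.86, 12.73 and 12.66 in the Slc7a5-sh arrays and 13.22, 13.15 and 13.19 in the C-Myc-sh arrays. It rose in C-Myc-sh cells, at 0.28 ± 0.06 (adjusted p = 0.00107), and read -0.15 ± 0.06 (adjusted p = 0.0812) in Slc7a5-sh cells, not called with all arrays and called without Slc7a5-sh replicate 1 (-0.21, adjusted p = 0.0318). The difference between the knockdowns was 0.44 ± 0.06 (adjusted p = 2.8e-05). NDUFA5, a small subunit of the ubiquinone-binding module, read 13.21, 13.24 and 13.32 in the Ctrl-sh arrays, 13.02, 13.06 and 12.75 in the Slc7a5-sh arrays and 13.37, 13.26 and 13.13 in the C-Myc-sh arrays. It fell in Slc7a5-sh cells, at -0.31 ± 0.08 (adjusted p = 0.00947), read -0.01 ± 0.08 (adjusted p = 0.963) in C-Myc-sh cells, and differed between the knockdowns by 0.31 ± 0.08 (adjusted p = 0.00458). Without the _s_at and _x_at probe sets NDUFA6 was read elsewhere and stood at 0.31 in Slc7a5-sh cells.

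**Figure D3:**
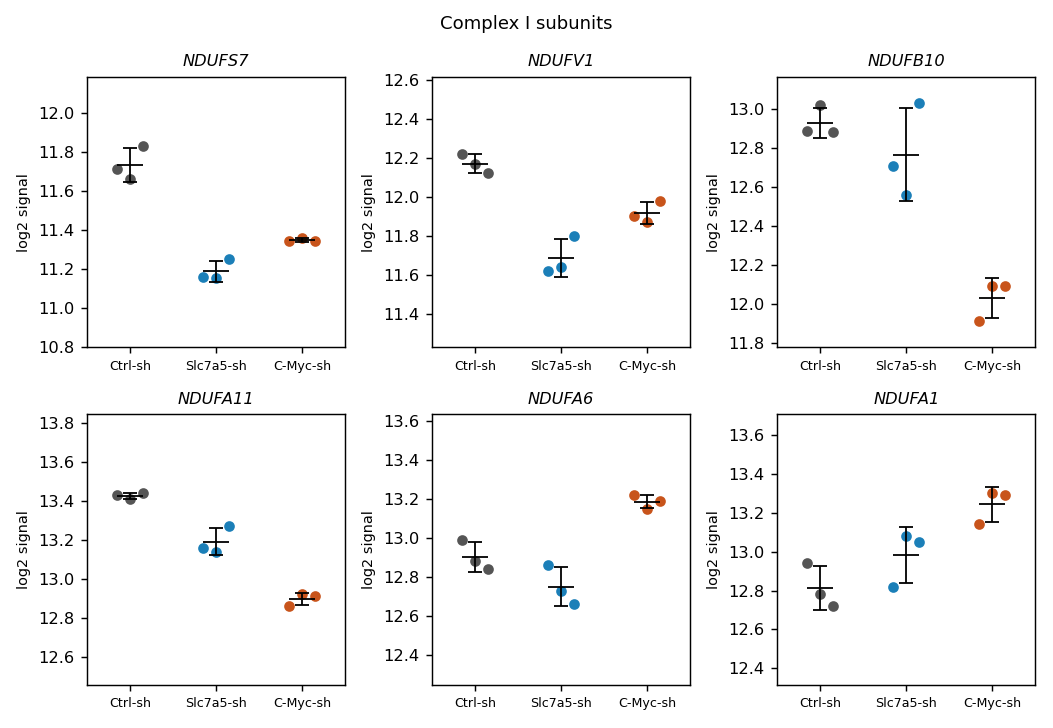
Log2 signal of 6 complex I genes in each array (points), with the mean and SD of each group of 3 arrays (bars), in 1 panel a gene on axes of equal span. NDUFS7 and NDUFV1 are lowest in Slc7a5-sh cells, NDUFB10 and NDUFA11 are lowest in C-Myc-sh cells, and NDUFA6 and NDUFA1 are highest in C-Myc-sh cells.

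Complex II, succinate dehydrogenase, links the chain to the citric acid cycle, and its 3 measured genes went different ways. SDHA, the flavoprotein that oxidises succinate, read 11.65, 11.66 and 11.62 in the Ctrl-sh arrays, 11.20, 11.22 and 11.34 in the Slc7a5-sh arrays and 10.87, 11.09 and 11.04 in the C-Myc-sh arrays. Both knockdowns lay below all control arrays, with changes of -0.39 ± 0.07 (adjusted p = 0.00130) and -0.64 ± 0.07 (adjusted p = 2.5e-06). SDHA was lower in C-Myc-sh than in Slc7a5-sh cells, at -0.25 ± 0.07 (adjusted p = 0.00909), a call lost without C-Myc-sh replicate 1 (-0.19, adjusted p = 0.0516). SDHD, a membrane anchor that helps to form the ubiquinone site, read 12.18, 12.35 and 12.31 in the Ctrl-sh arrays, 12.05, 12.11 and 11.79 in the Slc7a5-sh arrays and 12.73, 12.57 and 12.77 in the C-Myc-sh arrays. All C-Myc-sh arrays lay above and all Slc7a5-sh arrays below the controls. SDHD rose by 0.41 ± 0.08 (adjusted p = 7.0e-04) in C-Myc-sh cells, and the call held with any 1 array left out. In Slc7a5-sh cells the change was -0.30 ± 0.08 (adjusted p = 0.0170), a call lost without Ctrl-sh replicate 2 (-0.26, adjusted p = 0.0698), Ctrl-sh replicate 3 (-0.28, adjusted p = 0.0594) or Slc7a5-sh replicate 3 (-0.20, adjusted p = 0.0658). The difference between the knockdowns, 0.71 ± 0.08 (adjusted p = 5.5e-06), was larger than either. SDHC, the other anchor, read 12.06, 12.02 and 11.98 in the Ctrl-sh arrays, 12.29, 12.16 and 12.19 in the Slc7a5-sh arrays and 12.07, 11.96 and 12.02 in the C-Myc-sh arrays. Its change was 0.19 ± 0.06 (adjusted p = 0.0248) in Slc7a5-sh cells and 0.00 ± 0.06 (adjusted p = 0.962), not called, in C-Myc-sh cells. The first of these was lost without Ctrl-sh replicate 2 (0.19, adjusted p = 0.0648), Ctrl-sh replicate 3 (0.18, adjusted p = 0.0874) or Slc7a5-sh replicate 1 (0.16, adjusted p = 0.106). SDHC has 7 probe sets, and its C-Myc-sh change read 0.40 as their mean and 0.48 without the _s_at and _x_at sets.

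The c-subunit of the ATP synthase rotor is encoded by 3 genes that make the same mature protein behind different import sequences, and the 3 did not move together. ATP5MC1 read 12.17, 12.22 and 12.26 in the Ctrl-sh arrays, 11.79, 11.70 and 11.67 in the Slc7a5-sh arrays and 11.18, 11.08 and 11.19 in the C-Myc-sh arrays. The groups formed separate steps, with a change of -0.50 ± 0.06 (adjusted p = 6.3e-05) in Slc7a5-sh cells and -1.06 ± 0.06 (adjusted p = 2.2e-09) in C-Myc-sh cells, 47.9% of the control signal in the latter, and -0.57 ± 0.06 (adjusted p = 2.4e-06) between the knockdowns. ATP5MC2 read 13.44, 13.45 and 13.39 in the Ctrl-sh arrays, 13.78, 13.74 and 13.89 in the Slc7a5-sh arrays and 13.47, 13.50 and 13.45 in the C-Myc-sh arrays. It rose in Slc7a5-sh cells, at 0.38 ± 0.05 (adjusted p = 1.2e-04), and was not called in C-Myc-sh cells, at 0.05 ± 0.05 (adjusted p = 0.423), and the direct comparison was -0.33 ± 0.05 (adjusted p = 8.3e-05); after quantile normalization its C-Myc-sh change was 0.28 and called, and a dimmer probe set read -0.37 in Slc7a5-sh cells. ATP5MC3 read 14.32, 14.23 and 14.21 in the Ctrl-sh arrays, 14.26, 14.19 and 14.23 in the Slc7a5-sh arrays and 14.16, 14.20 and 14.25 in the C-Myc-sh arrays. Its arrays overlapped in all groups, with changes of -0.02 ± 0.05 (adjusted p = 0.762) and -0.05 ± 0.05 (adjusted p = 0.416), though the C-Myc-sh change was 0.15 and called after quantile normalization. ATP5MC1 has 1 probe set, so its value has no second reading on the array.

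**Figure D4:**
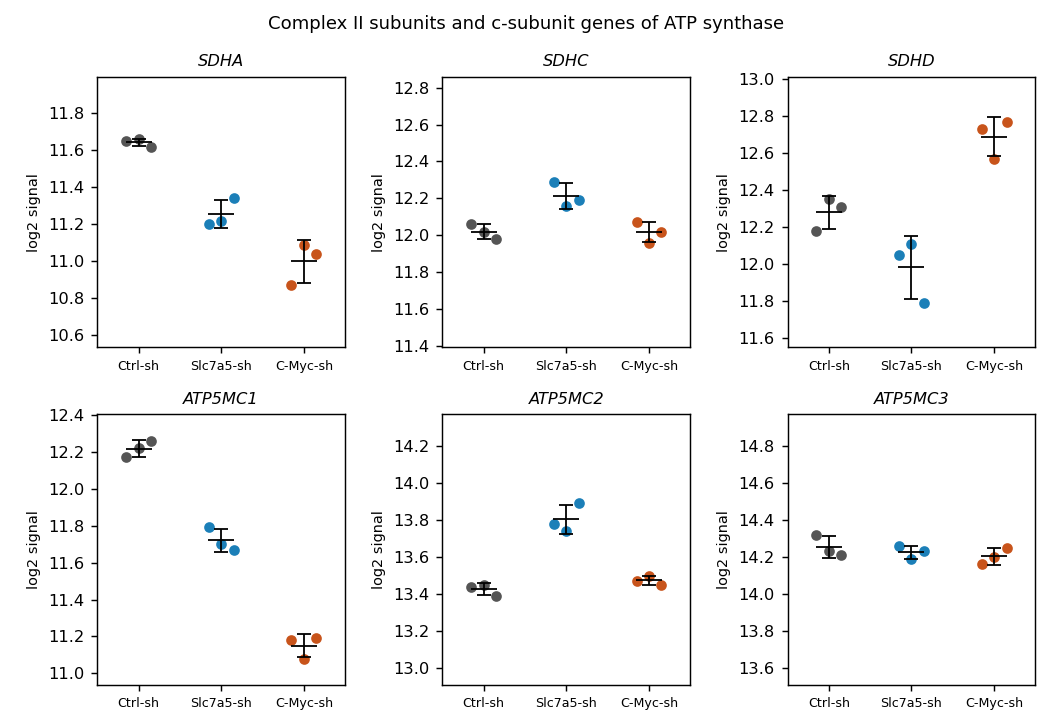
Log2 signal of the complex II genes SDHA, SDHC and SDHD and of the c-subunit genes ATP5MC1, ATP5MC2 and ATP5MC3 in each array (points), with the mean and SD of each group of 3 arrays (bars). SDHA and ATP5MC1 step down from Ctrl-sh to Slc7a5-sh to C-Myc-sh, SDHD is lowest in Slc7a5-sh cells and highest in C-Myc-sh cells, and ATP5MC2 is highest in Slc7a5-sh cells.

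Complex III had no member higher in either knockdown with all arrays on the deposited scale, while after quantile normalization 3 were higher in C-Myc-sh cells. In C-Myc-sh cells 1 was higher when probe sets were averaged, without Slc7a5-sh replicate 3 or without C-Myc-sh replicate 1, and 1 was higher in each knockdown without the _s_at and _x_at sets. UQCRC2, a core protein of the matrix side, read 13.03, 13.01 and 13.00 in the Ctrl-sh arrays, 12.80, 12.73 and 12.80 in the Slc7a5-sh arrays and 12.73, 12.76 and 12.79 in the C-Myc-sh arrays. All knockdown arrays lay below the controls, with changes of -0.24 ± 0.05 (adjusted p = 0.00278) and -0.26 ± 0.05 (adjusted p = 4.2e-04); after quantile normalization the C-Myc-sh change was -0.09 and not called, and as the mean of all its probe sets it was 0.17. UQCR11, a small subunit of the membrane domain with an E-box window printed above, read 13.54, 13.39 and 13.49 in the Ctrl-sh arrays, 13.27, 13.05 and 13.28 in the Slc7a5-sh arrays and 12.83, 12.97 and 13.11 in the C-Myc-sh arrays. It fell by 0.51 ± 0.08 (adjusted p = 4.7e-05) in C-Myc-sh cells. In Slc7a5-sh cells its change was -0.27 ± 0.08 (adjusted p = 0.0165), a call lost without Ctrl-sh replicate 1 (-0.24, adjusted p = 0.0689), Ctrl-sh replicate 3 (-0.27, adjusted p = 0.0532) or Slc7a5-sh replicate 2 (-0.20, adjusted p = 0.0723). CYC1, cytochrome c1, which passes electrons to cytochrome c, read 12.94, 13.02 and 13.04 in the Ctrl-sh arrays, 12.78, 12.83 and 12.88 in the Slc7a5-sh arrays and 12.94, 13.03 and 12.93 in the C-Myc-sh arrays. Its Slc7a5-sh change of -0.17 ± 0.05 (adjusted p = 0.0298) was lost without Ctrl-sh replicate 2 (-0.16, adjusted p = 0.0924), Ctrl-sh replicate 3 (-0.15, adjusted p = 0.108), Slc7a5-sh replicate 1 (-0.15, adjusted p = 0.108) or Slc7a5-sh replicate 2 (-0.17, adjusted p = 0.0576). In C-Myc-sh cells CYC1 stood at -0.03 ± 0.05 (adjusted p = 0.650), not called, and at 0.14 after quantile normalization. The other 4 genes, UQCRC1, UQCRB, UQCRQ and UQCR10, were called in neither knockdown, with changes of -0.20 to 0.06 in Slc7a5-sh cells and -0.19 to 0.11 in C-Myc-sh cells.

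Complex IV has a catalytic core from mitochondrial DNA and a shell of nuclear subunits, several with tissue isoforms. The ubiquitous isoforms COX4I1, COX6A1, COX6B1, COX7A2, COX7B and COX8A were all in the test, whereas the muscle and heart isoforms COX6A2 and COX7A1 and the isoforms COX6B2, COX7B2 and COX8C fell below the expression filter. COX4I2, the isoform linked to low oxygen, passed it and was called in neither knockdown. COX4I1 read 14.27, 14.27 and 14.16 in the Ctrl-sh arrays, 14.25, 14.17 and 14.42 in the Slc7a5-sh arrays and 14.40, 14.48 and 14.48 in the C-Myc-sh arrays. Its C-Myc-sh arrays lay above the controls, by 0.22 ± 0.06 (adjusted p = 0.00887). COX5B, the zinc-binding subunit, read 13.44, 13.37 and 13.44 in the Ctrl-sh arrays, 13.38, 13.40 and 13.52 in the Slc7a5-sh arrays and 13.60, 13.68 and 13.71 in the C-Myc-sh arrays. It rose in C-Myc-sh cells by 0.25 ± 0.05 (adjusted p = 0.00103) and differed between the knockdowns by 0.23 ± 0.05 (adjusted p = 0.00225); without the _s_at and _x_at sets COX5B read -0.14 in C-Myc-sh cells. COX5A, another nuclear subunit, read 14.27, 14.29 and 14.25 in the Ctrl-sh arrays, 14.07, 14.15 and 14.25 in the Slc7a5-sh arrays and 13.87, 14.02 and 13.98 in the C-Myc-sh arrays. It fell by 0.31 ± 0.06 (adjusted p = 2.4e-04) in C-Myc-sh cells, a call that quantile normalization removed (-0.10).

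COX8A, the smallest subunit, was called in opposite directions in the knockdowns, each time narrowly. It read 13.18, 13.24 and 13.09 in the Ctrl-sh arrays, 12.89, 13.00 and 13.05 in the Slc7a5-sh arrays and 13.32, 13.34 and 13.29 in the C-Myc-sh arrays. The Slc7a5-sh arrays lay below and the C-Myc-sh arrays above the controls. Its Slc7a5-sh change of -0.19 ± 0.06 (adjusted p = 0.0240) was lost without Ctrl-sh replicate 1 (-0.19, adjusted p = 0.0712), Ctrl-sh replicate 2 (-0.16, adjusted p = 0.110) or Slc7a5-sh replicate 1 (-0.15, adjusted p = 0.111). The C-Myc-sh change of 0.15 ± 0.06 (adjusted p = 0.0371) was lost without Ctrl-sh replicate 1 (0.16, adjusted p = 0.0733), Ctrl-sh replicate 3 (0.11, adjusted p = 0.166) or any of C-Myc-sh replicates 1 (0.15, adjusted p = 0.0709), 2 (0.14, adjusted p = 0.101) and 3 (0.16, adjusted p = 0.0540). With eBayes without trend neither call was kept, and with the replicate block the C-Myc-sh call was lost. The direct difference of 0.34 ± 0.06 (adjusted p = 1.5e-04) held with any 1 array left out. Among the other ubiquitous isoforms, COX6B1 was called higher in C-Myc-sh cells at 0.15 ± 0.06 (adjusted p = 0.0477), a call lost without Ctrl-sh replicate 1 or 2 (adjusted p = 0.0831 and 0.109) or the third control array, without Slc7a5-sh replicate 1 (adjusted p = 0.0546) and without C-Myc-sh replicate 1 or 2 (adjusted p = 0.186 and 0.125). That call was also lost with the replicate block, with eBayes without trend and with averaged probe sets. COX6A1, COX7A2 and COX7B were called in neither knockdown. Their C-Myc-sh changes of 0.02, 0.13 and -0.08 became 0.20, 0.33 and 0.12 after quantile normalization.

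The mitochondrially encoded subunits were lower in Slc7a5-sh cells or not called. COX3, one of the core subunits, read 12.32, 12.07 and 12.54 in the Ctrl-sh arrays, 11.38, 11.56 and 10.85 in the Slc7a5-sh arrays and 12.48, 12.20 and 12.10 in the C-Myc-sh arrays. Its 3 Slc7a5-sh arrays lay below all the others, while the C-Myc-sh arrays overlapped the controls. The change was -1.05 ± 0.16 (adjusted p = 2.4e-04) in Slc7a5-sh cells, -0.05 ± 0.16 (adjusted p = 0.796) in C-Myc-sh cells and 0.99 ± 0.16 (adjusted p = 8.2e-05) between the knockdowns, all from 1 probe set of the _x_at kind. COX1, which holds the oxygen-reducing site, read 14.95, 14.91 and 14.86 in the Ctrl-sh arrays, 14.86, 14.57 and 14.66 in the Slc7a5-sh arrays and 14.68, 14.66 and 14.76 in the C-Myc-sh arrays. Its Slc7a5-sh change was -0.21 ± 0.07 (adjusted p = 0.0310), although 1 Slc7a5-sh array equalled the lowest control to 2 decimals, and the call was lost without Ctrl-sh replicate 1 (-0.19, adjusted p = 0.107), Ctrl-sh replicate 2 (-0.21, adjusted p = 0.0842), Slc7a5-sh replicate 2 (-0.14, adjusted p = 0.124) or Slc7a5-sh replicate 3 (-0.19, adjusted p = 0.0767). Its C-Myc-sh change of -0.20 ± 0.07 (adjusted p = 0.0174) was lost without Ctrl-sh replicate 1 (-0.18, adjusted p = 0.0668) or C-Myc-sh replicate 2 (-0.18, adjusted p = 0.0643), and after quantile normalization (-0.07). COX2 was called in neither knockdown. Over the 7 mitochondrially encoded subunits of any complex with a probe set, of 13 listed, 0 rose and 4 fell in Slc7a5-sh cells, with a median of -0.20. In C-Myc-sh cells 0 rose and 2 fell, with a median of -0.06, and after quantile normalization 1 rose and 0 fell. The counts on the deposited scale stand beside 14.3% of all tested genes higher and 11.0% lower in Slc7a5-sh cells, and 28.7% and 26.2% in C-Myc-sh cells. The Slc7a5-sh count of 4 was 2 without Ctrl-sh replicate 1, and 3 without Ctrl-sh replicate 2, Slc7a5-sh replicate 1 or Slc7a5-sh replicate 2. With averaged probe sets or with eBayes without trend 2 fell there, and without the _s_at and _x_at sets 1 of 4. The C-Myc-sh count of 2 was 0 without Ctrl-sh replicate 1 or C-Myc-sh replicate 2, and 1 without Ctrl-sh replicate 2, Ctrl-sh replicate 3 or C-Myc-sh replicate 3.

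Among the 9 assembly genes of complex IV 0 rose and 1 fell in Slc7a5-sh cells, and 2 rose and 2 fell in C-Myc-sh cells, where their changes ran from -1.09 to 1.72. The share that fell in Slc7a5-sh cells was 11.1%, beside 11.0% of all tested genes, with 14.3% of all higher. In C-Myc-sh cells the shares were 22.2% each, beside 28.7% of all tested genes higher and 26.2% lower. COX11, which delivers copper to the oxygen-reducing site, read 12.32, 12.20 and 12.29 in the Ctrl-sh arrays, 12.29, 12.45 and 12.50 in the Slc7a5-sh arrays and 11.17, 11.16 and 11.21 in the C-Myc-sh arrays. The 3 C-Myc-sh arrays lay below every other array. Its change was -1.09 ± 0.07 (adjusted p = 3.2e-09) in C-Myc-sh cells and -1.23 ± 0.07 (adjusted p = 1.5e-09) between the knockdowns, and 0.15 ± 0.07 (adjusted p = 0.121), not called, in Slc7a5-sh cells, where it was called without Slc7a5-sh replicate 1 (0.21, adjusted p = 0.0396). A second COX11 probe set read -0.83 in C-Myc-sh cells, but without the _s_at sets the gene read -0.09 and was not called. COX20, the chaperone of newly made COX2, read 11.97, 12.20 and 12.05 in the Ctrl-sh arrays, 11.99, 11.96 and 11.74 in the Slc7a5-sh arrays and 11.07, 10.76 and 11.38 in the C-Myc-sh arrays. It too fell in C-Myc-sh cells, by 1.00 ± 0.12 (adjusted p = 6.0e-06), and its second probe set read -0.44.

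COX17 and COX19 were the members of this group called higher in C-Myc-sh cells. COX17, the copper chaperone of the intermembrane space, read 6.43, 6.54 and 6.51 in the Ctrl-sh arrays, 5.28, 6.53 and 7.20 in the Slc7a5-sh arrays and 8.45, 8.13 and 8.05 in the C-Myc-sh arrays. It is dim, is read from 1 probe set only, and its Slc7a5-sh arrays spread widely. Its C-Myc-sh arrays lay above all the others, with a change of 1.72 ± 0.41 (adjusted p = 0.00229). COX19, another copper-route protein of the intermembrane space, read 8.65, 8.63 and 8.43 in the Ctrl-sh arrays, 8.99, 8.43 and 8.88 in the Slc7a5-sh arrays and 9.41, 9.32 and 9.30 in the C-Myc-sh arrays. It rose in C-Myc-sh cells by 0.77 ± 0.16 (adjusted p = 6.8e-04). COX14, which holds newly made COX1 for assembly, read 11.55, 11.40 and 11.35 in the Ctrl-sh arrays, 11.35, 11.03 and 11.07 in the Slc7a5-sh arrays and 11.47, 11.45 and 11.46 in the C-Myc-sh arrays. Its Slc7a5-sh change of -0.28 ± 0.08 (adjusted p = 0.0233) was lost without Ctrl-sh replicate 1 (-0.23, adjusted p = 0.107), Slc7a5-sh replicate 2 (-0.22, adjusted p = 0.0920) or Slc7a5-sh replicate 3 (-0.25, adjusted p = 0.0737). COX7A2L, which ties complex III to complex IV in supercomplexes, read 12.45, 12.47 and 12.32 in the Ctrl-sh arrays, 12.50, 12.75 and 12.92 in the Slc7a5-sh arrays and 12.94, 12.98 and 13.08 in the C-Myc-sh arrays. It rose in C-Myc-sh cells by 0.59 ± 0.09 (adjusted p = 4.0e-05), and its Slc7a5-sh change of 0.31 ± 0.09 (adjusted p = 0.0172) was lost without Ctrl-sh replicate 3 (0.26, adjusted p = 0.0771) or Slc7a5-sh replicate 3 (0.21, adjusted p = 0.0697).

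**Figure D5:**
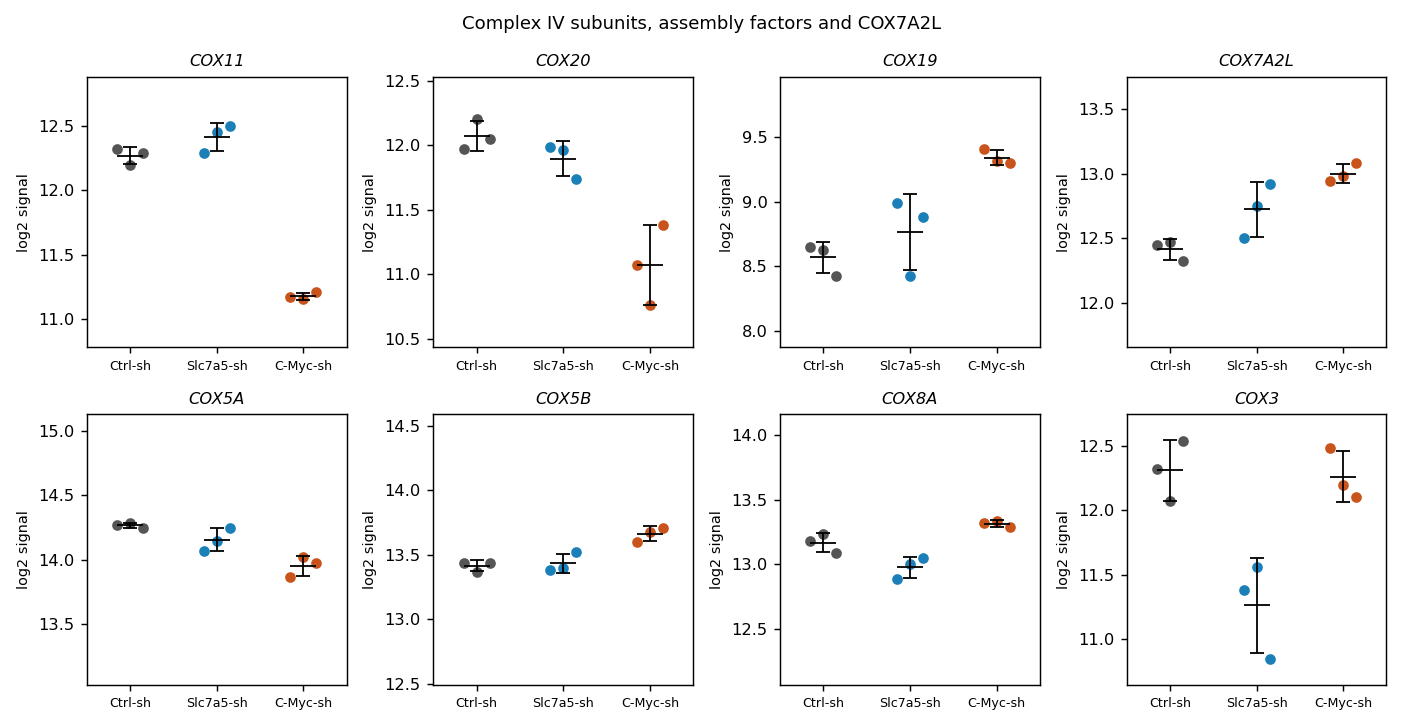
Log2 signal of the complex IV assembly genes COX11, COX20 and COX19, the supercomplex gene COX7A2L, the nuclear subunits COX5A, COX5B and COX8A and the mitochondrially encoded COX3 in each array (points), with the mean and SD of each group of 3 arrays (bars). COX11 and COX20 are lowest in C-Myc-sh cells, COX19 and COX7A2L are highest there, and COX3 is lowest in Slc7a5-sh cells.

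Outside the c-subunit genes, complex V had calls in its central stalk, peripheral stalk and membrane part. ATP5F1A and ATP5F1B, which form the catalytic head, were called in neither knockdown, with changes of -0.06 each in Slc7a5-sh cells and -0.10 and -0.12 in C-Myc-sh cells; after quantile normalization ATP5F1A was called lower in Slc7a5-sh cells, at -0.11. ATP5F1D, a subunit of the central stalk, read 11.94, 11.84 and 11.96 in the Ctrl-sh arrays, 11.40, 11.50 and 11.79 in the Slc7a5-sh arrays and 11.25, 11.46 and 11.55 in the C-Myc-sh arrays. It fell by 0.49 ± 0.10 (adjusted p = 5.2e-04) in C-Myc-sh cells. Its Slc7a5-sh change of -0.35 ± 0.10 (adjusted p = 0.0154) was lost without Ctrl-sh replicate 1 (-0.34, adjusted p = 0.0508), Ctrl-sh replicate 3 (-0.33, adjusted p = 0.0563), Slc7a5-sh replicate 1 (-0.27, adjusted p = 0.0742) or Slc7a5-sh replicate 2 (-0.32, adjusted p = 0.0522). ATP5F1C, the rotating shaft of that stalk, read 13.86, 13.88 and 13.77 in the Ctrl-sh arrays, 13.75, 13.82 and 13.95 in the Slc7a5-sh arrays and 13.45, 13.61 and 13.55 in the C-Myc-sh arrays. Its C-Myc-sh change was -0.30 ± 0.06 (adjusted p = 8.0e-04), a call lost after quantile normalization (-0.10), and its other probe set read 0.48.

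In the peripheral stalk, which holds the head still, ATP5PF and ATP5PD moved in opposite directions in C-Myc-sh cells. ATP5PF read 13.88, 13.85 and 13.81 in the Ctrl-sh arrays, 13.67, 13.72 and 13.75 in the Slc7a5-sh arrays and 13.38, 13.49 and 13.50 in the C-Myc-sh arrays. It fell by 0.39 ± 0.05 (adjusted p = 1.1e-05) in C-Myc-sh cells, and its Slc7a5-sh change of -0.13 ± 0.05 (adjusted p = 0.0709) was not called except without C-Myc-sh replicate 1 (-0.13, adjusted p = 0.0484). ATP5PD read 13.70, 13.70 and 13.60 in the Ctrl-sh arrays, 13.74, 13.63 and 13.78 in the Slc7a5-sh arrays and 13.78, 13.92 and 13.93 in the C-Myc-sh arrays. It rose by 0.21 ± 0.06 (adjusted p = 0.00648) in C-Myc-sh cells, where all 3 arrays lay above the controls. ATP5MJ and ATP5MK, small membrane subunits, were lower in C-Myc-sh cells at -0.23 and -0.19, calls lost after quantile normalization (-0.02 and 0.00), and ATP5ME, another membrane subunit, was higher at 0.18. The peripheral-stalk genes ATP5PB and ATP5PO were called in neither knockdown. ATP5MF was dim and scattered, with Ctrl-sh arrays from 3.80 to 6.12, and its C-Myc-sh change of 1.64 ± 0.71 (adjusted p = 0.0649) was not called; it was called without Ctrl-sh replicate 2 (2.07, adjusted p = 0.0399) or Slc7a5-sh replicate 3 (1.64, adjusted p = 0.0386).

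Among genes that build the complexes without being part of them, more fell than rose in C-Myc-sh cells. Of 46 assembly factors, none of them members, 4 rose and 25 fell in C-Myc-sh cells, with a median change of -0.33, beside 28.7% of all tested genes higher and 26.2% lower. Quantile normalization gave 4 and 26 with a median of -0.36, averaged probe sets 6 and 18 with a median of -0.20, and the 38 genes with sets other than _s_at and _x_at 4 and 17 with a median of -0.15. In Slc7a5-sh cells 6 rose and 9 fell, 13.0% and 19.6%, beside 14.3% and 11.0% of all tested genes, with a median of -0.04. Among the list's genes for copper delivery to complex IV, SCO1 was lower in C-Myc-sh cells (-0.33, adjusted p = 0.0262) and SCO2 was not called (0.13, adjusted p = 0.266). The 4 with the smallest p in C-Myc-sh cells were UQCC3, a complex III assembly factor (-1.30, adjusted p = 2.0e-08), NDUFAF8 (-0.88, adjusted p = 4.3e-08), NDUFAF3 (-1.69, adjusted p = 5.1e-08) and TMEM126B (-0.67, adjusted p = 6.5e-08), the last 3 being complex I assembly factors. In Slc7a5-sh cells DMAC1 (-0.55, adjusted p = 5.3e-05) and SDHAF3, an assembly factor of complex II (-0.74, adjusted p = 4.4e-04), led the list.

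Around the chain, no citric acid cycle gene rose in Slc7a5-sh cells. Of 12 tested, 0 rose and 6 fell, with a median of -0.24, led by the isocitrate dehydrogenase genes IDH2 (-0.56, adjusted p = 4.7e-04) and IDH3G (-0.44, adjusted p = 0.00160). In C-Myc-sh cells 2 rose and 4 fell. These counts stand beside 14.3% of all tested genes higher and 11.0% lower in Slc7a5-sh cells, and 28.7% and 26.2% in C-Myc-sh cells, as do those of the lists that follow. With averaged probe sets 2 citric acid cycle genes fell in Slc7a5-sh cells, and without the _s_at and _x_at sets 3 of 8 fell there and 0 in C-Myc-sh cells. Of 19 electron carrier and coenzyme Q genes, 2 rose and 1 fell in Slc7a5-sh cells, and 2 rose and 7 fell in C-Myc-sh cells. PDSS1, which starts the coenzyme Q tail, was among the latter (-1.05, adjusted p = 1.7e-08), while COQ10B, a coenzyme Q chaperone, rose (1.12, adjusted p = 2.6e-07). Of 19 biogenesis and mitochondrial transcription genes, 3 rose and 2 fell in Slc7a5-sh cells, and 4 rose and 8 fell in C-Myc-sh cells. The count of 3 was 1 without Ctrl-sh replicate 1, 2 or 3 or Slc7a5-sh replicate 3, and 2 without Slc7a5-sh replicate 1. Among them the coactivator PPARGC1B rose in C-Myc-sh cells (0.99, adjusted p = 4.9e-06), and SSBP1, which coats single-stranded mitochondrial DNA, fell (-0.45, adjusted p = 4.0e-06). TWNK, the mitochondrial helicase, rose in Slc7a5-sh cells (0.44, adjusted p = 0.00385) and fell in C-Myc-sh cells (-0.75, adjusted p = 8.9e-06).

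The promoter letters were counted on both strands in all windows of the table, 35116 in all; the E-box and the NRF1 core read the same on both strands. The E-box CACGTG lay in 8 of the members' 90 windows, 8.89%, beside 7.26% of all windows and 9.46% of the windows of genes tested here. These windows belonged to ATP5MC1, ATP5ME, ATP5PB, COX14, NDUFA11, NDUFA7, NDUFS7 and UQCR11. Of these 8 genes, 0 were called higher and 5 lower in Slc7a5-sh cells, with a median change of -0.26, beside 4 higher and 10 lower of the 61 tested members without it, with a median of -0.04. Of the 5, UQCR11 and COX14 lost their calls without Ctrl-sh replicate 1 or Slc7a5-sh replicate 2, and with eBayes without trend, which leaves 3, and NDUFS7, NDUFA11 and UQCR11 were not called lower with averaged probe sets. In C-Myc-sh cells the split was 1 higher and 4 lower of the 8, with a median of -0.24, beside 15 and 18 of the 61, with a median of -0.06. The NRF1 core, the capitals of the NDUFA8 and COX17 windows above, lay in 7 windows, 7.78%, beside 1.24% of all windows and 2.12% of those of tested genes. Windows of a gene can overlap, and COX18 entered this count with overlapping windows that hold the same site. Of the 6 members holding the NRF1 core, the 3 printed above rose in C-Myc-sh cells and 1, ATP5F1C, fell, beside 13 and 21 of the 63 without it. In Slc7a5-sh cells 0 of the 6 rose and 1 fell, beside 4 and 14 of the 63. The ETS core CCGGAAG lay in 25 windows, 27.8%, beside 10.3% of all windows and 17.7% of those of tested genes, and 9 of the 23 tested members holding it rose and 5 fell in C-Myc-sh cells, beside 7 and 17 of the 46 without it. In Slc7a5-sh cells 0 of the 23 rose and 4 fell, beside 4 and 11 of the 46. These counts describe the members' windows and were not tested. Of all tested genes 14.3% were called higher and 11.0% lower in Slc7a5-sh cells, and 28.7% and 26.2% in C-Myc-sh cells. The motif splits use the deposited scale. After quantile normalization 35 members were higher and 18 lower in C-Myc-sh cells, ATP5F1C was not called (-0.10), and the splits by motif are not given.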

How the data were processed

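Total RNA of 9 Daudi samples, 3 for each shRNA, was amplified from the 3′ end, labelled with biotin and hybridised to 1 array each, per the labels' protocols. The authors deposited log2 signals for 54613 probe sets in 1 table, made with MAS5 according to the submitters' processing notes, which give no version. The base and the scaling were read from the values: on the linear scale each array had a 2% trimmed mean of 497. The platform annotation gave 41091 probe sets exactly 1 symbol, 1801 several and 11721 none.

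Genes with a mean of at least 5.77, the median of all probe-set means, entered 1 limma fit (limma 3.58.1, R 4.3.3) of 3 group means over 9 arrays, with eBayes and a mean-variance trend (6 residual and 8.21 prior degrees of freedom). P-values were adjusted by the Benjamini-Hochberg method over 11250 genes and called under 0.05. The script was tested on simulated data with known changes. Precision is limited by the 3 arrays of a group. Members and gene lists were chosen with earlier results of these data known. Full values were planned for complex II, for the isoform sets, for members called in opposite directions and for the 3 largest direct differences. In each other complex they were planned for up to 4 called members in each direction whose arrays did not overlap. Of these, COX4I2, COX6A1, COX6B1, COX7A2, COX7B, NDUFB6, ATP5F1E and ATP5MF are given in part only, and the untested isoforms by name only. NDUFS1, NDUFB3, the heads of the list comparisons and a few more were added after their values were seen. Replicate numbers did not pair the arrays: same-numbered arrays of different groups correlated at -0.023 to 0.018 in their deviations from the group means.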

Additional observations from a re-analysis of the deposited data

How the results depend on the processing

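Several counts of calls and complex medians moved with the setting, and the cause was not tested unless the setting itself left out genes or arrays. After quantile normalization the C-Myc-sh count of members higher became 35, with medians of 0.075, 0.096, -0.005, 0.318 and 0.069 for complexes I to V. The direct counts became 43 higher and 12 lower, with medians of 0.129, -0.109, 0.347 and 0.122 for complexes I, II, IV and V. Averaging over a gene's probe sets, 1581 genes in place of 2843 were called in Slc7a5-sh cells, 795 higher and 786 lower of 10176. The members higher and lower there were 2 and 8, with medians of 0.058 for complex I and -0.180 for complex II. In the same setting 16 members were lower in C-Myc-sh cells, with medians of 0.057, 0.402 and -0.031 for complexes I to III, and 12 were lower in the direct comparison, with medians of 0.026, 0.106 and 0.005 for complexes I, II and V. Of all genes tested there, 2252 were lower in C-Myc-sh cells and 2027 in the direct comparison. Without the _s_at and _x_at probe sets 66 members were tested. Of these 8 were lower in Slc7a5-sh cells, with a complex II median of -0.037, and 11 were lower in C-Myc-sh cells, with medians of 0.022, 0.444 and -0.032 for complexes I, II and V. In the direct comparison 8 were lower, with medians of 0.046, 0.481, -0.067 and 0.042 for complexes I, II, III and V. Of the 8817 genes tested without those sets, 899 were lower in Slc7a5-sh cells, 2067 in C-Myc-sh cells and 1906 in the direct comparison. With eBayes without trend 2 members were higher and 8 lower in Slc7a5-sh cells, and 15 were higher in the direct comparison. All tested genes then had 1260 higher and 923 lower in Slc7a5-sh cells, and 2545 higher in the direct comparison.

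The signs listed here are those that turned with a call before or after, among 43 members given gene by gene. Over all 85 tested members quantile normalization turned 5 signs in Slc7a5-sh cells, 23 in C-Myc-sh cells and 17 in the direct comparison, and 0, 9 and 12 of these had a call in either setting. The Slc7a5-sh signs that turned were NDUFS7 (0.22), NDUFA11 (0.15), ATP5F1E (0.23) and NDUFB6 (0.05) when a gene's sets were averaged, and ATP5MC2 (-0.37), NDUFA6 (0.31) and NDUFB6 (0.40) without the _s_at and _x_at sets. In C-Myc-sh cells quantile normalization turned ATP5F1E (0.02), ATP5MC3 (0.15), COX7B (0.12) and CYC1 (0.14). There averaging turned ATP5F1E (0.18), COX7B (0.33), NDUFB6 (0.35), NDUFV1 (0.46), SDHC (0.40) and UQCRC2 (0.17), and leaving out the _s_at and _x_at sets turned ATP5F1C (0.48), COX5B (-0.14), NDUFB6 (1.15) and SDHC (0.48). In the direct comparison quantile normalization turned ATP5MC3 (0.16), COX5A (0.00), COX6A1 (0.12), COX7B (0.18) and UQCRC2 (0.13). Averaging turned ATP5MC2 (0.00), COX7B (0.64), SDHC (0.11) and UQCRC2 (0.45), and leaving out the _s_at and _x_at sets turned ATP5F1C (0.54), ATP5MC2 (0.34) and SDHC (0.25).

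Leaving out 1 array at a time gave 2 to 7 members higher and 13 to 20 lower in Slc7a5-sh cells, with medians of -0.037 to 0.033, -0.360 to -0.201, -0.196 to -0.146, -0.082 to -0.025 and -0.091 to -0.037 for complexes I to V. For C-Myc-sh cells it gave 14 to 21 higher and 23 to 27 lower, with medians of -0.090 to -0.056, -0.031 to 0.025, -0.169 to -0.058, 0.107 to 0.156 and -0.145 to -0.070. The direct comparison ran from 17 to 25 higher and 16 to 26 lower, with medians of -0.058 to 0.027, -0.224 to -0.160, 0.015 to 0.093, 0.159 to 0.222 and -0.112 to -0.011. The shared replicate numbers did not pair the arrays, and with the replicate number as a block 5 members were higher and 19 lower in Slc7a5-sh cells, 15 and 26 in C-Myc-sh cells, and 23 and 21 in the direct comparison. The ETS core was held by 14.4% of the members' windows when only the given strand was read, beside 5.75% of all windows. Signals near background limit COX17 and ATP5MF, and probe sets that may match several transcripts limit SDHA, COX3 and ATP5MC1.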

Other observations

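Probe sets of 1 gene did not always run together. Of the 24 members called in Slc7a5-sh cells, 11 had another probe set above the expression filter, 20 such sets in all, of which 16 had the sign of the called set and 4 the opposite one (in ATP5F1E, ATP5MC2, NDUFB6 and NDUFS1). Of the 44 called in C-Myc-sh cells, 22 had 33 other sets, 24 with the same and 9 with the opposite sign. In the direct comparison 50 members were called and 26 had 43 other sets, 32 with the same and 11 with the opposite sign. The other members with sets of opposite sign in C-Myc-sh cells were ATP5F1C, ATP5F1D, ATP5MJ, COX4I1, COX5B, NDUFB8 and UQCRC2.

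The median change among bright genes is given here for all tested genes and for the members. In C-Myc-sh cells the 402 tested genes with a mean of 13 to 14 had a median change of -0.25 and the 175 at 14 or above one of -0.13, while the 25 and 17 members in those ranges had medians of -0.03 and -0.05. After quantile normalization the same ranges gave -0.05 and -0.01 for all genes and 0.20 and 0.12 for the members. These are medians of overlapping sets and were not tested.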
